A study of Sus scrofa with 16 samples.

Results

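Solute carriers (SLC) are membrane proteins that move sugars, amino acids, metals, other ions, nucleotides and vitamins across the plasma membrane and across the membranes of organelles. Some let a substrate flow down its gradient, others couple its uptake to sodium or protons, and others exchange one substrate for another. In muscle they are best known for glucose uptake, for the import of creatine and the exchange of lactate, and for the carriers that feed the mitochondria. The genes were taken as every row of the count table whose name starts with SLC and a digit, which gave 79 of 3875 genes. Of these, 77 encode transporters. The other two, *SLC9A3R1* and *SLC9A3R2*, encode scaffold proteins that bind transporters at the membrane, and they are counted apart. A gene was taken as expressed with 10 or more counts in at least 4 of the 16 samples. This held for 35 of the 79 genes, among them 33 transporters. All 79 names are current symbols.

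The libraries were made from myogenic satellite cells (SCs), the stem cells of skeletal muscle, of 8 male piglets aged 3 days. Of these, 4 were wild type (WT) and 4 were DMD piglets, which lack exon 52 of the dystrophin gene and are a model of Duchenne muscular dystrophy. The SCs came from the intercostal muscle, were enriched with magnetic beads and were cultured outside the animal in all groups, so that no group holds the muscle's other cells by design. Each animal gave 1 library of proliferating cells (PROL; passage 6, growth medium with fetal bovine serum and basic fibroblast growth factor) and 1 of differentiating cells (DIFF; reduced horse serum for 10 days in the sequencing methods and 7 days in the culture methods), which makes 4 groups of 4 libraries. The comparisons ask how WT and DMD SCs differ within each state, how DIFF differs from PROL within each genotype, and whether the genotype effect differs between the states, which is called the interaction below.

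Libraries held 1110050 to 1781174 counts of 3′ tags. The ribosomal RNA gene *RN18S* took 6.32% to 20.4% of them, with the highest share in DMD PROL library 4. The *DMD* gene had 6 counts in each WT PROL library and 24 to 32 in DMD PROL. Tags at the 3′ end do not show the loss of an exon, so this level checks no label. Markers of myogenic cells and of other cells moved with the groups. Of 8 myogenic markers in the table, 6 were tested, and their summed level over all 8, in counts scaled to library size (CPM), ran from 195 to 266 in WT PROL, 3932 to 6307 in DMD PROL, 1952 to 3337 in WT DIFF and 13276 to 14904 in DMD DIFF. The myogenic regulator *MYF5* had no count in the WT libraries, and *PAX7* is not among the counted genes. The 6 fibroblast markers summed to 8221 to 10020 CPM in WT PROL, 4142 to 4581 in DMD PROL, 21233 to 24334 in WT DIFF and 9463 to 12699 in DMD DIFF. They did not all move alike. In DIFF *COL1A2* averaged 7898 CPM in WT and 9096 in DMD and was not called, while *DCN*, *POSTN*, *COL3A1*, *LUM* and *THY1* were called lower in DMD. *DCN* averaged 7196 CPM in WT DIFF and 385 in DMD DIFF. The 4 endothelial markers summed to 146 to 163 CPM in WT PROL and 16.0 to 34.1 in DMD PROL, with 78.2 to 122 in WT DIFF and 33.8 to 50.4 in DMD DIFF. From PROL to DIFF in WT SCs *PECAM1* was called higher, and *ERG* and *ENG* were called lower. The 2 pericyte markers in the table moved apart. *ACTA2* averaged 753 and 831 CPM in WT and DMD PROL and 996 and 11643 CPM in WT and DMD DIFF, so that their sum ran from 653 to 1547 CPM in the first 3 of these groups and from 10327 to 12210 in DMD DIFF. *RGS5* was at 105 ± 80.0 CPM (mean ± SD of 4 libraries) in WT PROL and averaged 4.29 to 5.80 CPM in the other groups. Those of 4 leukocyte markers, with *CD3E* at 0, were 39.9 to 70.7, 25.9 to 40.8, 48.5 to 67.3 and 18.2 to 23 CPM in WT and DMD PROL and in WT and DMD DIFF, and those of 5 adipocyte markers, with *ADIPOQ* and *LPL* at 0, did not exceed 25.0 CPM in any library. The part of these shifts in the results below was not tested. In such bulk libraries, fewer cells of a type and less RNA per cell cannot be told apart.

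A single gene, *SLC2A2*, dominated the solute carriers in the count table. It encodes GLUT2, the glucose carrier known from liver, kidney, gut and pancreatic beta cells. *SLC2A2* alone took 2.20% to 4.21% of a library's counts and ranked 2 to 5 among the counted genes of every library. It made up 93.9% to 97.3% of the counts of the 77 transporters in the table. Carriers without a row in the table enter neither these shares nor the class sizes below. All other transporters in the table together held 0.106% to 0.144% of a library. Over the 16 libraries *SLC2A2* averaged 33298 CPM, 113 times the mean CPM of the next transporter, the mitochondrial phosphate carrier *SLC25A3* (294 CPM). By design a transcript is tagged at its 3′ end whatever its length, so these shares are not scaled by length. Of the 32 other expressed transporters, 3 averaged over 100 CPM, all of them mitochondrial carriers (*SLC25A3*, *SLC25A1* and *SLC25A39*). Their median was 16.5 CPM, and 7 averaged under 10 CPM, so that most of the results below rest on few counts per library. Of the 33 expressed transporters, 14 had 10 or more counts in all 16 samples.

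The level of *SLC2A2* was lowest in WT PROL, higher in DMD PROL, and highest in both DIFF groups. The WT PROL libraries held 19313, 19780, 25031 and 18831 CPM (20739 ± 2888, mean ± SD, n = 4 here and below), and the DMD PROL libraries 25845, 27526, 32002 and 31149 CPM (29130 ± 2926). The lowest DMD library lay above the highest WT library by a small gap. DMD against WT in PROL gave 0.49 on the log2 scale (SE 0.09, edgeR adjusted *p* = 0.000961), which passed the test but not the limit of 0.6 on the log2 fold change, so the gene was not called. In DIFF the groups overlapped, with 47511, 41584, 43444 and 36453 CPM in WT (42248 ± 4588) and 42784, 39585, 42599 and 39337 CPM in DMD (41076 ± 1870). Here the log2 fold change was −0.04 (SE 0.09, edgeR adjusted *p* = 0.75), and without WT library 1 it was 0.02. In order of CPM, WT PROL and DMD PROL stood apart, and DMD DIFF and WT DIFF did not differ beyond their spread. As a plain share of library counts the PROL groups overlapped, with 2.78% in WT library 3 and 2.72% in DMD library 1.

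Differentiation came with more *SLC2A2* in both genotypes. In WT SCs the gain was 1.01 on the log2 scale (SE 0.11, adjusted *p* = 2.29e-06), with no overlap between the 4 DIFF and 4 PROL libraries. In DMD SCs the log2 fold change was 0.50 (SE 0.08, adjusted *p* = 0.000104), again without overlap but under the fold limit. The interaction was −0.53 (SE 0.14, adjusted *p* = 0.00494), past the test and under the limit. These sizes depend on the scaling (TMM), whose factors ran from 1.11 to 1.17 in WT PROL and from 0.865 to 0.916 in WT DIFF. As a share of library counts, without these factors, *SLC2A2* averaged 2.36% in WT PROL and 3.74% in WT DIFF. In DMD PROL and DIFF it averaged 2.98% and 3.98%. The technical duplicates of a sample differed in the share of *SLC2A2* by −0.584 to 0.672 percentage points. With the first duplicate alone DMD against WT in PROL gave 0.69 and was called, and with the second alone it gave 0.31 and was not. Leaving *SLC2A2* and *RN18S* out of the library sizes changed no call of a transporter in any of the 5 comparisons.

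**Figure D1:**
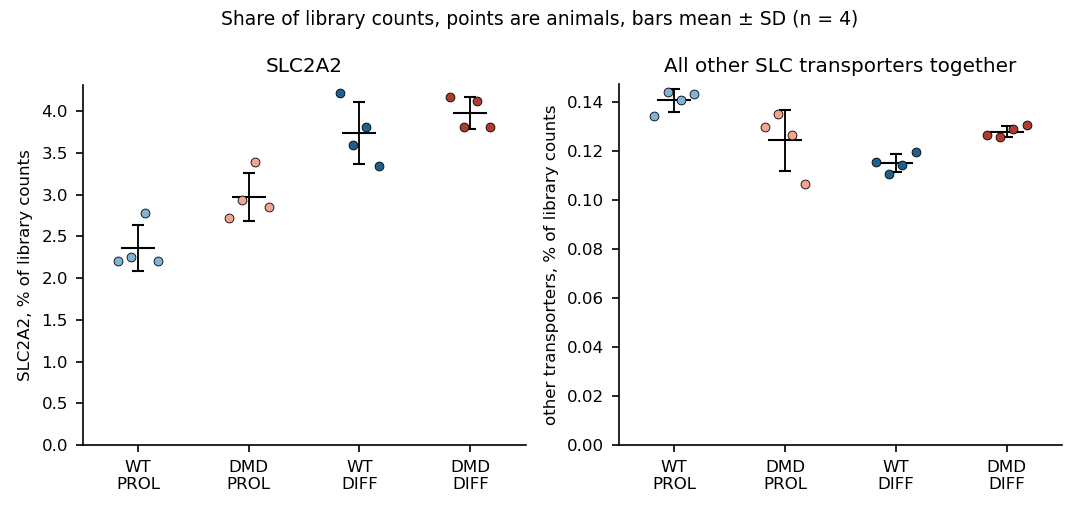
Share of library counts (%) of *SLC2A2* (left) and of all other SLC transporters together (right) in each library, by group; points are animals, horizontal marks and bars are the mean ± SD of 4 libraries, and both axes start at 0. *SLC2A2* runs from 2.20% to 4.21% and is highest in the DIFF groups, while the other transporters together stay between 0.106% and 0.144%.

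Markers of liver and pancreatic islet were rare in the libraries, and kidney and gut were not checked. Of 18 markers of liver and pancreatic islet, 13 were in the table and only *APOA1* was frequent enough to be tested. The summed level of the 13 was 5.76 to 64.2 CPM per library. *SST*, which encodes somatostatin, had 124 counts and was at 18.2 ± 18.8 CPM in WT PROL. *ALB*, which encodes serum albumin, had 42 counts over the 16 libraries. The liver and islet regulators *HNF4A* and *PDX1* had 4 each, glucagon (*GCG*) had 6, and the fibrinogen chain gene *FGB* had none. In the RefSeq annotation of the pig assembly Sscrofa11.1 none of the 3 nearest genes on either side of *SLC2A2* overlaps it, and none of them is in the count table. The files were made on the build susScr3, and the place of the *SLC2A2* reads within the gene was not looked at. The genes whose log2 CPM followed *SLC2A2* most closely over the 16 libraries were *ATP5E* (Pearson's r = 0.92), which encodes a subunit of the ATP synthase, *INSIG1* (r = 0.92), a regulator of sterol synthesis, and *FOXO1* (r = 0.91), a transcription factor. These are descriptions over libraries that share the 4 groups. *INSIG1*, for example, averaged 13.6 ± 2.85 CPM in WT PROL, 27.4 ± 6.47 in DMD PROL, 84.1 ± 15.6 in WT DIFF and 75.7 ± 7.88 in DMD DIFF.

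Across the 33 expressed transporters, edgeR called 15 in at least 1 of the 5 comparisons and 18 in none. In PROL, 3 were higher and 1 was lower in DMD than in WT SCs, beside 8.72% (higher) and 9.7% (lower) of the 2052 genes of the test. In DIFF, 7 were higher and 3 lower in DMD, against 15.5% and 16.8% of all genes. From PROL to DIFF, 5 were higher and 4 lower in WT (all genes 17.1% and 13.9%), and 4 were higher and none lower in DMD (15.1% and 11.6%). DESeq2 called none lower in DMD either, and 3 were lower there at an unadjusted *p* under 0.05. The interaction called 2 in the positive and 3 in the negative direction (10.4% and 12.7% of all genes). These counts hold *SLC46A3*, which passed the filter on low counts only through WT DIFF, where it is high. Without it 2 were lower in DMD in DIFF, 4 were higher in WT DIFF than in WT PROL, and 2 had a negative interaction. In total 12.1%, 30.3%, 27.3%, 12.1% and 15.2% of the transporters were called in these comparisons, and 18.4%, 32.4%, 31.0%, 26.8% and 23.1% of all genes. These shares lie near or under those of all genes, and no test of the transporters as a group was run. Their median log2 fold changes were −0.01, −0.01, −0.04, 0.04 and 0.18, beside 0.00, −0.03, 0.03, 0.02 and −0.04 for all genes. Comparisons that use the same libraries are not independent.

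**Figure D2:**
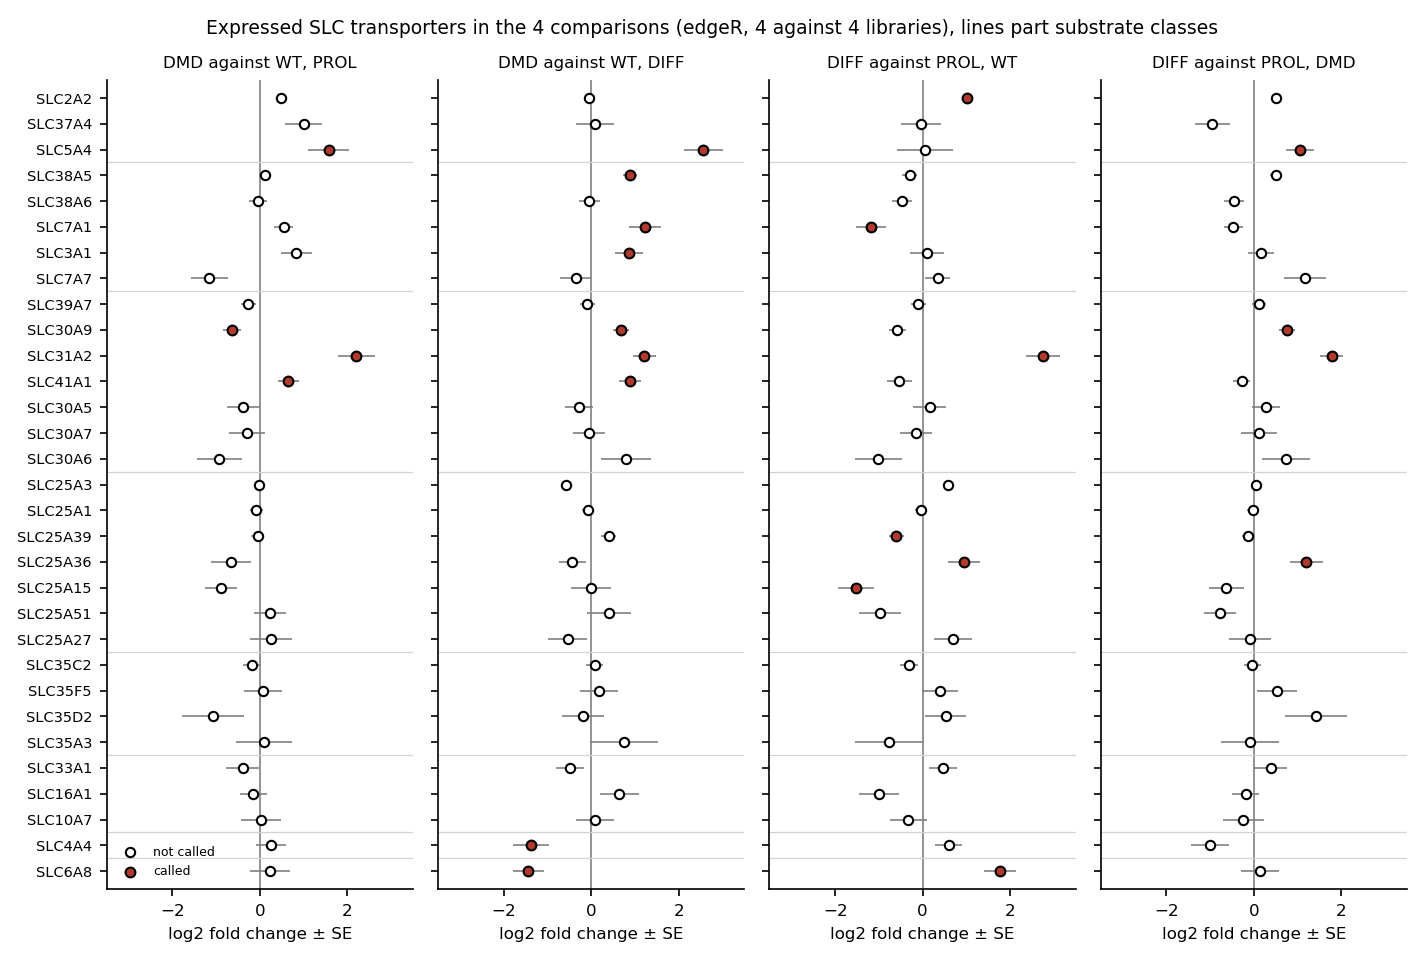
Log2 fold change ± SE (edgeR, 4 against 4 libraries) of 31 expressed SLC transporters in the 4 pairwise comparisons, grouped by substrate class; filled points were called (adjusted *p* under 0.05 and absolute log2 fold change over 0.6) and open points were not. *SLC46A3* is left out because its fitted value rests on a group at 0. *SLC31A2* is called higher in all 4 panels, and the 4 nucleotide sugar carriers are called in none.

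Among the metal carriers *SLC31A2* was called higher in all 4 pairwise comparisons. Of 11 genes of this class 7 were expressed. In DIFF 3 of the 7 (*SLC31A2*, *SLC30A9* and *SLC41A1*) were called higher in DMD than in WT SCs and none lower, beside 15.5% and 16.8% of all genes. The log2 fold changes of the others in DIFF were −0.09 (*SLC39A7*), −0.28 (*SLC30A5*), −0.05 (*SLC30A7*) and 0.80 (*SLC30A6*). In PROL, *SLC31A2* and *SLC41A1* were called higher and *SLC30A9* lower, beside 8.72% and 9.7% of all genes. The class summed to 219 ± 28 CPM in WT PROL, 203 ± 15.0 in DMD PROL, 212 ± 16.3 in WT DIFF and 291 ± 17.4 in DMD DIFF. The DMD DIFF libraries (270 to 313 CPM) lay above every library of the other groups, which ended at 246.

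*SLC31A2* encodes CTR2, a relative of the plasma membrane copper importer that is found in vesicles and lysosomes. It had 4.37, 6.21, 3.26 and 4.60 CPM in WT PROL and 13.5, 33.0, 25.6 and 14.4 CPM in DMD PROL. In WT DIFF it reached 20.6, 22.1, 33.6 and 51.7 CPM, and in DMD DIFF 56.0, 74.6, 89.3 and 79.6 CPM. No DMD library overlapped the WT libraries of its state, and no DIFF library overlapped the PROL libraries of its genotype. DMD exceeded WT SCs by 2.21 on the log2 scale in PROL (SE 0.42, adjusted *p* = 0.000821) and 1.22 in DIFF (SE 0.26, adjusted *p* = 0.00107). Differentiation raised it by 2.76 in WT (SE 0.40, adjusted *p* = 2.71e-05) and 1.78 in DMD SCs (SE 0.26, adjusted *p* = 3.38e-05). The interaction of −1.0 (SE 0.49, adjusted *p* = 0.139) did not pass the test. All 4 calls held under every alternative computed.

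*SLC30A9*, a zinc carrier of the mitochondria, changed direction between the states. In PROL the WT libraries held 55.4, 72.1, 54.4 and 73.7 CPM and the DMD libraries 50.5, 41.9, 39.6 and 32.8 CPM. In DIFF the WT libraries held 39.8, 45.6, 50.4 and 38.1 CPM and the DMD libraries 74.2, 74.6, 73.4 and 58.2 CPM. DMD SCs were below all WT libraries in PROL and above all of them in DIFF. On the log2 scale DMD against WT gave −0.63 in PROL (SE 0.20, edgeR adjusted *p* = 0.0254) and 0.69 in DIFF (SE 0.18, adjusted *p* = 0.00446), with an interaction of 1.32 (SE 0.26, adjusted *p* = 0.000373). In DMD SCs the gene rose with differentiation by 0.77 on the log2 scale (SE 0.18, adjusted *p* = 0.00265). In WT SCs the value was −0.57 (SE 0.19, adjusted *p* = 0.0238), under the fold limit. The PROL call was lost without WT library 2 (−0.57) or 4 (−0.56) and without DMD library 3 (−0.61) or 4 (−0.54), where the adjusted *p* ran from 0.0589 to 0.0738. With the second technical duplicate alone all 4 values, interaction included, missed the call.

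*SLC41A1* encodes a magnesium carrier of the plasma membrane. It was at 25.5 ± 6.47 CPM in WT PROL and 40.3 ± 3.78 in DMD PROL, and at 17.8 ± 1.87 in WT DIFF and 33.0 ± 3.63 in DMD DIFF. The DMD libraries lay above the WT libraries in PROL (36.9 to 45.5 against 16.2 to 30.5 CPM) and in DIFF (30.8 to 38.5 against 16.2 to 20.4). Fitted log2 fold changes were 0.66 in PROL (SE 0.23, adjusted *p* = 0.0451) and 0.89 in DIFF (SE 0.25, adjusted *p* = 0.00757). The DIFF call was lost with the second technical duplicate alone. The PROL call held under 9 of 21 alternatives and was lost with any library but WT 3 left out, with log2 fold changes between 0.49 without WT library 2 and 0.73 without WT library 1. The 4 zinc carriers *SLC39A7*, *SLC30A5*, *SLC30A7* and *SLC30A6*, which serve the endoplasmic reticulum, the Golgi and other compartments of the secretory pathway, were called in no comparison. Among them *SLC39A7*, a zinc release channel of the endoplasmic reticulum, was the most counted, at 80.8 ± 18.1, 67.6 ± 5.18, 77.1 ± 11.2 and 72.9 ± 11.1 CPM in WT and DMD PROL and in WT and DMD DIFF.

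Of other genes of metal handling, 10 of 18 listed were in the table and 5 were tested. In PROL edgeR and DESeq2 called none of the 5 between the genotypes, and 3 were lower in DMD at an unadjusted *p* under 0.05. In DIFF *COX17*, a copper chaperone for cytochrome oxidase, was higher in DMD (log2 fold change 1.21, SE 0.15, edgeR adjusted *p* = 4.24e-06), while *FTL*, the light chain of the iron store ferritin, and the copper-binding ferroxidase gene *CP* were lower. From PROL to DIFF *CP* rose and *COX17* and the transferrin receptor gene *TFRC* fell in WT SCs, and *TFRC* fell in DMD SCs. The interaction called *COX17* in the positive and *FTL* in the negative direction. The median log2 fold change of the 5 was −0.22 in PROL and −0.51 in DIFF.

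**Figure D3:**
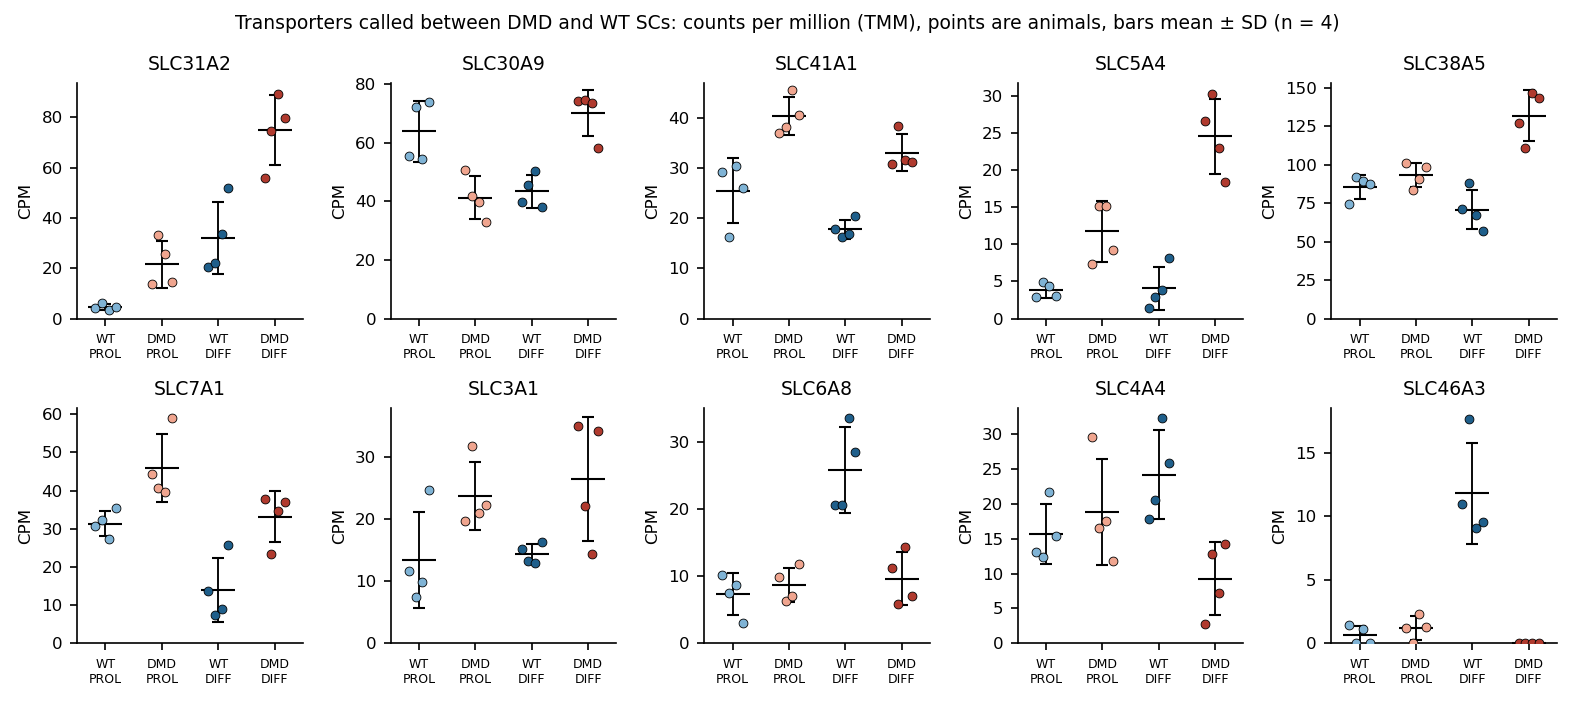
Counts scaled to library size (CPM with TMM factors; vertical axes start at 0 and differ between panels) of the 10 transporters called between DMD and WT SCs in PROL or DIFF; points are animals, horizontal marks and bars are the mean ± SD of 4 libraries. *SLC30A9* is lower in DMD PROL and higher in DMD DIFF than in WT, *SLC6A8* and *SLC46A3* are highest in the 4 WT DIFF libraries, and *SLC46A3* is at 0 in all 4 DMD DIFF libraries. *SLC46A3* passed the filter on low counts through WT DIFF alone, so its call is no test and its panel is a description.

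Of the 7 sugar carriers 3 were expressed. Beside *SLC2A2* these were *SLC5A4* and *SLC37A4*. *SLC5A4* encodes SGLT3, a member of the sodium-glucose cotransporter family. It had 2.92, 4.97, 4.35 and 3.07 CPM in WT PROL and 7.39, 15.2, 15.2 and 9.18 CPM in DMD PROL. In DIFF it had 1.37, 2.94, 3.88 and 8.17 CPM in WT and 26.6, 30.3, 23 and 18.5 CPM in DMD. Every DMD library lay above every WT library of its state. Its log2 fold change was 1.57 in PROL (SE 0.47, adjusted *p* = 0.0196) and 2.56 in DIFF (SE 0.44, adjusted *p* = 0.000154). Within DMD SCs the gene rose from PROL to DIFF by 1.06 on the log2 scale (SE 0.32, adjusted *p* = 0.0137), and within WT the value was 0.06 (SE 0.64). The interaction of 0.99 (SE 0.64, adjusted *p* = 0.276) did not pass. These values rest on 2 to 12 counts per WT library. The DIFF call held under all 20 alternatives. The PROL call was lost without DMD library 2 (1.42) or 3 (1.43), the rise in DMD SCs was lost without animal 1 (0.84), and both were lost with either technical duplicate alone.

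*SLC37A4*, the carrier of glucose 6-phosphate into the endoplasmic reticulum, was called in no comparison by edgeR or DESeq2. It had 9.47 ± 5.65 CPM in WT PROL, 19.8 ± 6.41 in DMD PROL, 9.59 ± 1.81 in WT DIFF and 10.2 ± 4.96 in DMD DIFF. *SLC2A4*, which encodes GLUT4, the insulin-dependent glucose carrier of mature muscle, had no count in any library. This allows a level of up to 0.123 CPM over the 24407954 counts of the 16 libraries, counting error alone. The gene is named here although it fell outside the naming rule. Of 12 genes of glucose phosphorylation and uptake control, 8 were in the table and 6 were tested. One of the 6 was called in each genotype comparison. This was *TXNIP*, a brake on glucose uptake, which was lower in DMD SCs by 2.43 on the log2 scale in PROL (log2 fold change −2.43, SE 0.35, edgeR adjusted *p* = 0.000367) and by more in DIFF (−3.62, SE 0.13, adjusted *p* = 1.2e-12). *TXNIP* rose from PROL to DIFF in WT (3.28) and in DMD SCs (2.11), where *RAB8A*, a GTPase of vesicle traffic, fell, and its interaction was negative (−1.19).

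Of 15 amino acid carriers 5 were expressed. In DIFF 3 of the 5 (*SLC38A5*, *SLC7A1* and *SLC3A1*) were called higher in DMD than in WT SCs and none lower, beside 15.5% and 16.8% of all genes. The log2 fold changes of the other two in DIFF were −0.04 (*SLC38A6*) and −0.35 (*SLC7A7*). In PROL edgeR called none of the 5, with 2 higher and 1 lower at an unadjusted *p* under 0.05, and DESeq2 called *SLC7A7* lower. Of the 3, the interaction was called for *SLC38A5* alone, so for *SLC7A1* and *SLC3A1* the test did not show a difference between the states. The summed level of the 5 was 201 ± 12.0 CPM in WT PROL and 222 ± 14.7 in DMD PROL, and 163 ± 12.0 in WT DIFF and 249 ± 32.8 in DMD DIFF.

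*SLC38A5* encodes SNAT5, a sodium-coupled carrier of glutamine and other neutral amino acids. Its WT DIFF libraries held 71.4, 88.2, 67.2 and 57.2 CPM and its DMD DIFF libraries 127, 111, 147 and 143 CPM. The groups did not overlap in DIFF, and in PROL they did (85.8 ± 7.83 in WT and 93.5 ± 7.75 CPM in DMD). DMD exceeded WT by 0.89 on the log2 scale in DIFF (SE 0.16, adjusted *p* = 0.000184) and by 0.12 in PROL (SE 0.14, adjusted *p* = 0.603), with an interaction of 0.77 (SE 0.21, adjusted *p* = 0.00609). The DIFF call held under all 20 alternatives. The interaction missed the test with either technical duplicate alone.

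*SLC7A1* encodes CAT1, the main importer of arginine and lysine in many cells. In PROL it was at 31.4 ± 3.38 CPM in WT and 45.9 ± 8.97 in DMD SCs. In DIFF the WT libraries held 13.7, 7.35, 9.04 and 25.9 CPM and the DMD libraries 37.8, 23.3, 34.6 and 36.9 CPM. The DIFF groups overlapped through WT library 4. In DIFF the log2 fold change was 1.23 (SE 0.36, adjusted *p* = 0.00946), and with the first technical duplicate alone it was 0.80 and not called (adjusted *p* = 0.154). In PROL it was 0.55 (SE 0.21, adjusted *p* = 0.0628), and the interaction was 0.68 (SE 0.41, adjusted *p* = 0.234). With differentiation *SLC7A1* fell by 1.17 on the log2 scale in WT (SE 0.35, adjusted *p* = 0.0111), a call lost without WT animal 2 (−0.95) and with the first duplicate alone (−0.75), and the value in DMD SCs was −0.47 (SE 0.22, adjusted *p* = 0.1).

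*SLC3A1* encodes rBAT, the heavy subunit of an exchanger of cystine and dibasic amino acids. It had 15.1, 13.2, 12.9 and 16.3 CPM in WT DIFF and 35.0, 22.1, 14.4 and 34.1 CPM in DMD DIFF. DMD library 3 lay within the WT range. Fitted values were 0.87 in DIFF (log2 fold change, SE 0.33, adjusted *p* = 0.0382) and 0.84 in PROL (SE 0.36, adjusted *p* = 0.0942), which was not called. The DIFF call was lost under 8 of 20 alternatives. Among these were the fits without WT library 1 (0.89), 2 (0.83) or 3 (0.82) and without DMD library 1 (0.71) or 4 (0.72), where the adjusted *p* ran from 0.0586 to 0.125. *SLC38A6*, an orphan relative of the glutamine carriers, and *SLC7A7*, the light subunit of another exchanger of cationic amino acids, were called in no comparison by edgeR. *SLC7A7* was at 20.6 ± 6.18 CPM in WT PROL and 9.34 ± 5.15 in DMD PROL (log2 fold change −1.15, SE 0.42, edgeR adjusted *p* = 0.0529), where DESeq2 called it lower.

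Genes of the amino acid response, the program that cells run when amino acids are short, were also tested. Of 11 listed, 5 were in the table and 4 were tested. In PROL neither edgeR nor DESeq2 called any, where edgeR called 18.4% of all genes. At an unadjusted *p* under 0.05, 2 were higher in DMD. Of these *ASNS*, which encodes asparagine synthetase, also passed the adjusted test under the fold limit (log2 fold change 0.52, SE 0.12, edgeR adjusted *p* = 0.00379). In DIFF *ASNS* (log2 fold change 1.85, SE 0.12, adjusted *p* = 2.76e-09) and *PSPH*, an enzyme of serine synthesis (1.40, SE 0.11, adjusted *p* = 3.82e-08), were higher in DMD SCs, beside 15.5% of all genes. Both had a positive interaction (1.33 and 1.47). From PROL to DIFF *PSPH* fell in WT SCs, while *ASNS* and the transcription factor gene *ATF4* rose in DMD SCs. The median of the 4 in the DIFF genotype comparison was 0.98.

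Mitochondrial carriers were the largest expressed class, with 8 of 11 genes, and the only class of more than 1 gene in which the WT state comparison called several members lower. Between the genotypes edgeR and DESeq2 called none of the 8 in PROL or in DIFF, where edgeR called 18.4% and 32.4% of all genes. At an unadjusted *p* under 0.05, 2 were lower in DMD PROL, and in DMD DIFF 1 was higher and 1 lower. The lower 1 in DIFF was *SLC25A3*, which also passed the adjusted test (edgeR adjusted *p* = 0.000337) under the fold limit. From PROL to DIFF in WT SCs, 3 fell, with *SLC25A15* and *SLC25A39* among them, and 1 rose (*SLC25A36*). Of all genes 13.9% were called lower and 17.1% higher there. In DMD SCs *SLC25A36* rose and none fell by either tool, nor at an unadjusted *p* under 0.05. There edgeR called 15.1% of all genes higher and 11.6% lower. No member of the class was called for the interaction by edgeR or DESeq2. *SLC25A3* passed the edgeR test (adjusted *p* = 0.00413) under the fold limit, and no other member was under an unadjusted *p* of 0.05. For the members called from PROL to DIFF, a difference between the genotypes in these changes was not shown.

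*SLC25A15*, the ornithine carrier of the urea cycle and polyamine synthesis, had 21.9, 31.1, 12.0 and 29.2 CPM in the WT PROL libraries and 6.86, 4.41, 7.75 and 13.6 CPM after differentiation. The ranges overlapped through PROL library 3 and DIFF library 4. The fitted log2 fold change was −1.53 (SE 0.41, edgeR adjusted *p* = 0.00567), and without WT animal 2 it was −1.16 and not called. In DMD SCs it was at 12.6 ± 5.15 CPM in PROL and 8.15 ± 1.48 in DIFF (−0.63, SE 0.40). *SLC25A39*, a carrier of glutathione, was at 150 ± 15.4 CPM in the WT PROL libraries and 100 ± 25.8 after differentiation, with overlap through DIFF library 1 and PROL library 3. Its log2 fold change of −0.60 (SE 0.17, adjusted *p* = 0.00753) lay at the fold limit, was −0.50 without animal 2 and kept its call under 10 of 16 alternatives.

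*SLC25A36*, a carrier of pyrimidine nucleotides, was called higher after differentiation in both genotypes, and the WT call held under 9 of 16 alternatives. It had 8.75, 4.97, 13.1 and 16.9 CPM in the WT PROL libraries and 23.3, 26.5, 19.4 and 16.3 CPM after differentiation, with overlap in animal 4. The DMD libraries did not overlap, at 6.16, 7.62, 4.66 and 9.18 CPM in PROL and 14.0, 15.2, 20.2 and 14.2 CPM in DIFF. This gave log2 fold changes of 0.95 in WT (SE 0.37, adjusted *p* = 0.0464) and 1.20 in DMD SCs (SE 0.38, adjusted *p* = 0.0175). The WT call was lost without animal 1 (0.82), 2 (0.59) or 3 (1.10) and the DMD call without animal 1 (1.18) or 3 (0.91), and both were lost with either technical duplicate alone. With RLE size factors or with library size alone in place of TMM, the WT call was also lost. *SLC25A3*, the carrier that brings phosphate to the ATP synthase, was at 258 ± 26.2 CPM in WT PROL, 257 ± 9.48 in DMD PROL, 394 ± 35.2 in WT DIFF and 265 ± 30.9 in DMD DIFF. The 4 WT DIFF libraries (348 to 434 CPM) lay above every other library. The test was passed in WT from PROL to DIFF (log2 fold change 0.59, SE 0.11, adjusted *p* = 0.000245), in DIFF between the genotypes (−0.57, SE 0.11, adjusted *p* = 0.000337) and in the interaction (−0.57, SE 0.14, adjusted *p* = 0.00413), each just under the fold limit. Leaving out single animals took *SLC25A3* past it, as without WT animal 2 in the WT state comparison. The citrate carrier *SLC25A1* stayed between 135 and 143 CPM in the group means.

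**Figure D4:**
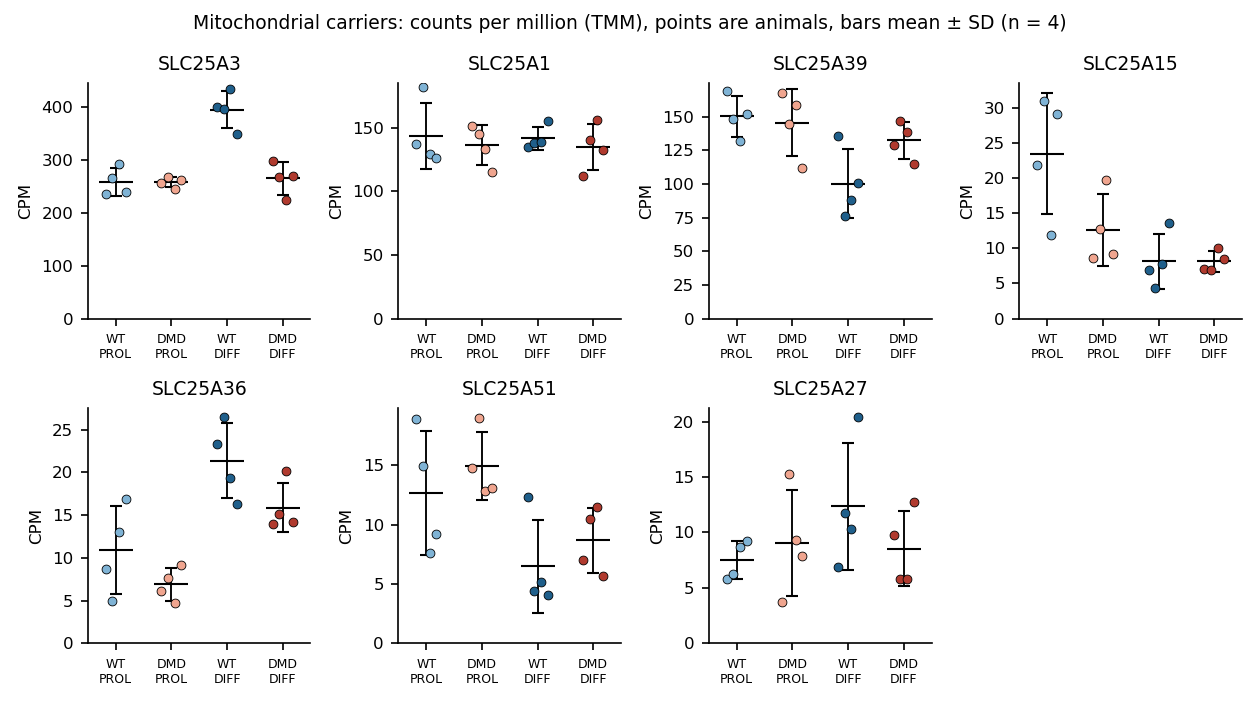
Counts scaled to library size (CPM with TMM factors; vertical axes start at 0 and differ between panels) of 7 expressed mitochondrial carriers by group; points are animals, horizontal marks and bars are the mean ± SD of 4 libraries. *SLC25A3* is highest in the 4 WT DIFF libraries (348 to 434 CPM). *SLC25A15* and *SLC25A39* have lower means in WT DIFF than in WT PROL, and *SLC25A36* has higher means in DIFF in both genotypes.

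Of 7 genes of the mitochondrial outer membrane, 2 were in the table and tested. *TSPO*, which encodes the translocator protein, was higher in DMD than in WT SCs in PROL (log2 fold change 1.19, SE 0.11, edgeR adjusted *p* = 1.17e-06) and had a negative interaction (−0.71), and it had no other call. Of 9 genes of fatty acid uptake and carnitine, 7 were in the table and 6 were tested. *CPT1A*, the carnitine palmitoyltransferase of the outer membrane, was lower in DMD PROL. In DIFF the fatty acid binding protein gene *FABP5* was higher and *CPT2* lower in DMD. From PROL to DIFF *CPT2* rose and *FABP5* fell in WT, *CPT1A* and *FABP5* rose in DMD SCs, and the interaction of *FABP5* was positive.

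The classes of neurotransmitters and creatine and of inorganic ions each held 1 expressed gene, *SLC6A8* and *SLC4A4*, and both were lower in DMD than in WT SCs in DIFF. *SLC6A8* imports creatine, the energy buffer of muscle. It rose in WT SCs from 10.2, 7.46, 8.70 and 3.07 CPM in PROL to 20.6, 20.6, 33.6 and 28.6 CPM in DIFF (log2 fold change 1.77, SE 0.37, edgeR adjusted *p* = 0.000862), a call that held under all 16 alternatives. The DMD libraries held 9.85, 6.35, 6.99 and 11.8 CPM in PROL and 11.2, 5.83, 14.4 and 7.10 CPM in DIFF (log2 fold change 0.13, SE 0.44). WT DIFF lay above all other libraries. DMD against WT in DIFF gave a log2 value of −1.43 (SE 0.35, adjusted *p* = 0.00311), and the interaction was −1.66 (SE 0.55, adjusted *p* = 0.0265). With the first technical duplicate alone these were −1.01 (adjusted *p* = 0.117) and −0.98 (adjusted *p* = 0.454), neither of them called. Scaled by library size without TMM, the interaction was −1.37 and not called. The interaction call was lost without WT animal 3 (−1.60) or 4 (−1.37) and without DMD animal 1 (−1.68) or 4 (−1.37). Of 7 genes of creatine synthesis and phosphocreatine 2 were in the table and 1 was tested. This was *GATM*, the first enzyme of creatine synthesis, which rose from PROL to DIFF in WT (log2 fold change 3.48) and in DMD SCs (2.17) and was not called in the other comparisons.

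*SLC4A4* encodes NBCe1, which moves sodium and bicarbonate together. Its libraries held 17.8, 20.6, 32.3 and 25.9 CPM in WT DIFF and 2.80, 12.8, 7.2 and 14.2 CPM in DMD DIFF, without overlap. In PROL the groups overlapped (15.7 ± 4.25 CPM in WT and 18.8 ± 7.56 in DMD). In DIFF the fitted log2 fold change was −1.37 (SE 0.41, adjusted *p* = 0.0121), and the interaction was −1.62 (SE 0.54, adjusted *p* = 0.0267). With the second technical duplicate alone these were −0.70 (adjusted *p* = 0.391) and −1.05 (adjusted *p* = 0.386), neither of them called. Scaled by library size without TMM, the interaction was −1.36 and not called. The interaction was lost without WT animal 2 (−1.59) or 4 (−1.58) and without DMD animal 1 (−1.03) or 3 (−1.56). Of 10 carbonic anhydrases, the enzymes that form bicarbonate, 2 were in the table and 1 was tested. *CA4* was lower in DMD SCs in PROL (−2.93) and in DIFF (−2.94), and it rose from PROL to DIFF in WT (2.67) and in DMD (2.65). Of 8 genes of the sodium-potassium pump, which builds the gradient that sodium-coupled carriers use, 4 were in the table and 2 were tested. *ATP1B1*, a pump subunit, was lower in DMD PROL (log2 fold change −0.74, SE 0.23, adjusted *p* = 0.0287) and fell from PROL to DIFF in WT (−1.21), with no other call.

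*SLC46A3*, a carrier of the lysosome membrane, passed the filter through WT DIFF alone. A gene kept in this way had to be high in that group, so its values are given as a description, with no test. It had 80 counts in all, of which 68 were in WT DIFF (16, 24, 14 and 14), 4 in WT PROL and 8 in DMD PROL. The DMD DIFF libraries had none. Set against 3 counts over the group, the level in DMD DIFF was at least 21.1-fold lower than in WT DIFF, or at least 10.6-fold with the counts halved.

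No carrier of nucleotide sugars or organic acids was called in any comparison by edgeR or DESeq2. Of all genes edgeR called 18.4% to 32.4% in the 5 comparisons. At an unadjusted *p* under 0.05, 1 of the 7 passed once, *SLC16A1* from PROL to DIFF in WT SCs (log2 fold change −1.0, SE 0.45). The count table held 4 genes classed by family with nucleotide sugar transport into the Golgi and endoplasmic reticulum. All 4 were expressed (*SLC35C2*, *SLC35F5*, *SLC35D2* and *SLC35A3*). Over the 16 libraries *SLC35F5*, *SLC35D2* and *SLC35A3* averaged only 9.76, 6.97 and 4.25 CPM, so their results rest on few counts. *SLC35C2*, the most counted, was at 50.6 ± 9.24 CPM in WT PROL, 45.0 ± 8.59 in DMD PROL, 41.6 ± 5.05 in WT DIFF and 43.8 ± 4.64 in DMD DIFF. Its log2 fold changes in the 4 pairwise comparisons lay between −0.31 and 0.08. Of 12 carriers of organic acids, lipids and organic ions 3 were expressed. *SLC33A1*, which carries acetyl-CoA into the endoplasmic reticulum, was at 17.7 ± 3.61, 13.4 ± 6.49, 24.8 ± 8.56 and 17.6 ± 4.66 CPM in WT and DMD PROL and in WT and DMD DIFF. *SLC16A1*, the lactate carrier MCT1, was at 20.0 ± 8.07, 18 ± 3.42, 10.1 ± 6.33 and 15.7 ± 2.74 CPM in the same order and is named outside the naming rule. Of 4 partners of lactate exchange 2 were in the table. These are the lactate dehydrogenase genes: *LDHA* was higher in DMD than in WT DIFF (log2 fold change 1.48, SE 0.18, edgeR adjusted *p* = 4.31e-05) and fell from PROL to DIFF in WT, *LDHB* fell in DMD SCs, and their interactions were 1.49 and −0.86.

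The scaffold gene *SLC9A3R2* rose with differentiation in both genotypes. It had 39.4, 27.3, 23.9 and 32.2 CPM in the WT PROL libraries and 76.9, 98.5, 76.2 and 105 CPM after differentiation. The DMD libraries held 12.3, 12.7, 29.1 and 10.5 CPM in PROL and 43.4, 54.8, 104 and 34.1 CPM in DIFF, with DMD animal 3 apart from the others in both states. The rise was 1.52 on the log2 scale in WT (SE 0.20, adjusted *p* = 1.27e-05) and 1.85 in DMD SCs (SE 0.41, adjusted *p* = 0.00427). Both calls held under all 16 alternatives. In PROL it was called lower in DMD (−0.91, SE 0.33, adjusted *p* = 0.0497), which held under 7 of 21 alternatives. It was kept without WT library 3 (−1.03) or DMD library 3 (−1.36) and was lost without any other, with log2 fold changes from −0.96 without WT library 2 to −0.75 without DMD library 4. *SLC9A3R1* was at 4.41 ± 2.63 and 11.9 ± 5.85 CPM in WT and DMD PROL and 8.47 ± 3.96 and 11.7 ± 6.71 CPM in WT and DMD DIFF. EdgeR did not call it, with a log2 fold change of 1.45 for DMD in PROL (SE 0.54, adjusted *p* = 0.0551), where DESeq2 called it higher.

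The remaining 44 genes did not pass the filter on low counts and were not tested. Of these, 7 had no count in any library: *SLC2A4*, *SLC6A14*, *SLC7A14*, *SLC11A1*, *SLC13A2*, *SLC24A2* and *SLC30A2*. Another 22 had 2 to 18 counts over all libraries. The other 15 had 20 or more. The most counted was *SLC1A3*, a glutamate carrier, with 44 counts in each WT state, 20 in DMD PROL and 14 in DMD DIFF. The zinc exporters *SLC30A1* and *SLC30A4* followed with 26, 36, 8 and 32 and with 30, 42, 6 and 14 counts (WT first, PROL before DIFF, here and below). *SLC12A4*, a potassium-chloride cotransporter, had 14, 16, 24 and 22, and *SLC37A3*, of the sugar phosphate family, had 22, 18, 16 and 12. *SLC7A2*, a relative of the arginine carrier described above, had 2, 12, 16 and 20 counts, and *SLC23A2*, a carrier of vitamin C, had 10, 10, 18 and 6. The sodium-coupled sugar carriers *SLC5A10* and *SLC5A1* had 2, 8, 14 and 16 and 4, 8, 12 and 6 counts. *SLC15A2*, a peptide carrier, had 20 counts, all of them in DMD libraries. The riboflavin carrier *SLC52A2* had 30, the mitochondrial carrier *SLC25A35* had 26, and the fatty acid carriers *SLC27A1* and *SLC27A2* had 22 each.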

How the data were processed

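Total RNA (25 ng per sample) was primed by the authors with a poly-dT oligo that holds a well barcode and a unique molecular identifier, and 3′ ends were enriched. According to the study's methods and the submitters' processing notes, the authors used bcl2fastq, FastQC, MultiQC and R 4.1.2, collapsed reads of 1 identifier, and mapped them onto build susScr3 of the pig with STAR 2.7.10b. The annotation and strand setting are not given in the sources used here. The deposited values are raw counts per gene in 32 columns, 2 technical duplicates for each of 16 samples, all matched to a sample. All 124000 values are even, for which no reason is given, so lower bounds are also given with counts halved. Duplicates were added. Libraries held 1110050 to 1781174 counts, and the limit for a gene without a count (3 counts) covers counting error only.

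Tests used edgeR 4.0.16 under R 4.3.3 (TMM, estimateDisp, robust glmQLFit, glmQLFTest) on the 2052 genes with 10 or more counts in at least 4 samples. Each pairwise comparison used the 8 libraries it is about and the interaction all 16. A call needs a Benjamini-Hochberg adjusted *p* under 0.05 over all genes tested and an absolute log2 fold change over 0.6. The SE is the absolute log2 fold change over the root of the F statistic, so it restates the test. CPM are scaled by TMM factors over the 16 libraries (0.865 to 1.17). The scripts were tested on simulated data.

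The genes, substrate classes and 16 lists of other genes were chosen with earlier results of these data known. Named are *SLC2A2*, every called member, the most counted member of a class without a call, members below the filter with 20 or more counts, and the scaffolds. A few genes enter the counts of genes but are not reported here. PROL and DIFF samples of 1 animal form a pair. Deviations from group means correlated within pairs at r = 0.0881 to 0.161, each sample best with its own animal in 8 of 8. Genotype groups share only replicate numbers. Alternatives were other scalings, filters, DESeq2 1.42.0, single duplicates, halved counts, 1 fit over all samples, a replicate block and leaving out each replicate.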

Additional observations from a re-analysis of the deposited data

Results flagged for a closer look

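A sample stood far from the other 3 of its group in 3 of 60 groups checked (15 called transporters, 4 groups each), where chance alone gives about 5% of groups. *SLC2A2* in WT PROL library 3 was at 25031 CPM, with the others at 18831 to 19780 CPM. *SLC30A9* in DMD DIFF library 4 was at 58.2 CPM, with the others at 73.4 to 74.6. *SLC41A1* in DMD DIFF library 2 was at 38.5 CPM, with the others at 30.8 to 31.7.

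The genotype effect differed between DIFF and PROL by a called interaction for 4 transporters. The log2 values were 1.32 for *SLC30A9*, 0.77 for *SLC38A5*, −1.62 for *SLC4A4* and −1.66 for *SLC6A8*. *SLC2A2* and *SLC25A3* passed the test of the interaction but not the fold limit. *SLC46A3* had a fitted value of −8.02, which is no test of a difference, since the gene passed the filter on low counts only through WT DIFF, where it is high. Set against a group at 0, the value is no measure of size, and with the first technical duplicate alone it missed the threshold (edgeR adjusted *p* = 0.0917).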

How the results depend on the processing

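With library size alone in place of TMM, the median log2 fold change of all genes moved by −0.15 (PROL), 0.13 (DIFF), −0.34 (WT states), −0.08 (DMD states) and 0.28 (interaction). The transporters called higher and lower were then 2 and 4 in PROL, 4 and 11 among 15 in the WT states, 4 and 2 in the DMD states and 3 and 1 in the interaction, beside 3 and 1, 5 and 4, 4 and 0, and 2 and 3 with TMM, and *SLC2A2* in DIFF turned to 0.0884. With the second duplicate alone 1 (PROL), 6 (DIFF), 1 (DMD states) and 2 (interaction) transporters were called. With the first alone 2 were called in the DMD states and *SLC2A2* passed the limit in PROL at 0.69. A single fit over 16 samples called 7 in the DMD states. Leaving out 1 animal gave 2 to 6 calls in PROL (2 without WT library 2 or DMD library 2 or 3), 5 to 10 in the WT states (5 without animal 2), 2 to 5 in the DMD states (2 without animal 1) and −0.0877 to 0.02 for *SLC2A2* in DIFF. With a replicate block 3, 9, 10, 5 and 5 transporters were called in PROL, DIFF, the WT and DMD states and the interaction. The paired fits of the states and the interaction lost no call. The block by number lost *SLC41A1* in PROL (adjusted *p* = 0.0547) and *SLC3A1* in DIFF (0.055). Leaving *RN18S* out of the counts in PROL, chosen after seeing the data, kept all 4 calls. Of the other values for single genes, 526 kept their direction and side of the limits, 94 fell short of a limit and 0 reversed. A minimum of 20 counts left *SLC46A3* and 1 other transporter without a value. Depth limits genes under about 10 CPM most, since 1 count in the shallowest library is 0.901 CPM.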
